A study of Macaca fascicularis with 20 samples.

Results

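miR-221 and miR-222 are 2 microRNAs made from neighbouring hairpins on the X chromosome, and here they were followed across 7 laser-cut regions of the fetal visual cortex of the crab-eating macaque. They were taken by name from the count tables (mir-221 and mir-222 there), with the 5p and the 3p arm of each hairpin, which gave 4 of the 1656 arms counted (2 of 828 microRNA names). All 4 arms passed the filter on low counts that left 1139 arms for testing.

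The regions were the ventricular zone (VZ), which lines the ventricle, the outer subventricular zone (OSVZ), which lies above it, and the cortical plate (CP), where newborn neurons gather. Each was cut in areas 17 and 18 of the cortex, and the OSVZ of area 17 was cut once at its ventricular side (OSVZ_17int) and once at its outer edge (OSVZ_17ext). Every region had 2 libraries, 1 from a set at embryonic day 80 (replicate 1) and 1 from a set at embryonic day 79 (replicate 2), so that VZ had 4 libraries, OSVZ 6 and CP 4. The labels name no genotype or treatment, and do not say if all pieces of a set were cut from 1 fetus, so the spread between libraries may be partly technical.

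A microRNA hairpin is cut into 2 arms, and usually the arm loaded into an Argonaute protein accumulates while the other is degraded. For miR-221 and miR-222 the 3p arm is the loaded one, and both 3p arms carry the same seed, the stretch near the 5′ end that finds target messages. Their best known target is CDKN1B, which encodes p27, an inhibitor of cyclin-dependent kinases that holds cells out of the cycle, and they also repress the related inhibitor p57. They are known as promoters of proliferation in glioma and other tumours, and they are abundant in endothelial cells.

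Libraries held 3603478 to 9517217 counts. Levels are CPM, counts scaled to a common library size, after TMM, a scaling that assumes most arms do not differ, and TMM factors ran from 0.567 to 1.32 in replicate 1 and from 1.04 to 1.51 in replicate 2. Markers of the zones were summed within each library. Both arms of miR-92b, a germinal zone microRNA, summed to 25995 to 52642 CPM in VZ and 13699 to 25541 CPM in OSVZ. In CP they summed to 523 to 1098 CPM. The cortical plate list held 8 arms, of miR-137, miR-138, miR-124 and miR-139, with mir-128 not analysed here. These summed to 766 to 1959 CPM in VZ, 1188 to 4080 CPM in OSVZ and 11152 to 19393 CPM in CP. miR-124 itself, a defining neuronal microRNA, was close to absent from the counts even in CP, where its 3p arm averaged 1.96 CPM. How reads that match several loci were counted is not given, so this value does not show its level in the tissue. Neither sum overlapped between CP and the germinal zones. Both lists were chosen with earlier results of these data known, so this is not an independent check of the dissection.

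The pair was among the abundant microRNAs of this tissue. miR-221-3p ranked between 8 and 18 among all arms in the 14 libraries, and miR-222-3p between 13 and 102. Both 3p arms together took 1.78% to 3.86% of the counts of a VZ library, 2.12% to 3.01% in OSVZ and 0.623% to 1.15% in CP. No CP library reached the level of any library of the germinal zones by this measure.

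In VZ_17, miR-222-3p stood at 15047 CPM in replicate 1 and 2911 CPM in replicate 2. In VZ_18 it stood at 4387 and 5269 CPM. The OSVZ libraries held 11064 and 1496 CPM (OSVZ_17int), 8416 and 4283 CPM (OSVZ_17ext) and 6188 and 3979 CPM (OSVZ_18). In CP the level was 1582 and 409 CPM in area 17 and 787 and 484 CPM in area 18. Every VZ library was therefore above every CP library, and in OSVZ only OSVZ_17int replicate 2 fell below the highest CP library. The mean of VZ was 6903 ± 5515 CPM (SD, n = 4), that of OSVZ 5904 ± 3429 CPM (n = 6) and that of CP 816 ± 536 CPM (n = 4).

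miR-222-3p was 3.12 ± 0.43 (SE) higher in VZ than in CP on the log2 scale, or 8.68-fold (edgeR quasi-likelihood test with the replicate set as a block, Benjamini-Hochberg adjusted p = 2.19e-06). It was 2.85 ± 0.42 higher in OSVZ than in CP, or 7.22-fold (edgeR adjusted p = 8.63e-06). In VZ against CP edgeR called 7.37% of all tested arms at an adjusted p under 0.05 (2.63% higher and 4.74% lower in VZ), and in OSVZ against CP 6.58% (2.37% higher and 4.21% lower in OSVZ). That balance turned with scaling by library totals, which gave 40 higher and 36 lower arms in VZ and 38 and 36 in OSVZ. TMM gave 30 and 54 in VZ and 27 and 48 in OSVZ. With DESeq2 size factors edgeR gave 35 higher and 43 lower arms in each comparison, so the balance did not turn. With the DESeq2 test, which differs from edgeR in more than the scaling, it turned in VZ (96 higher and 76 lower) and not in OSVZ (59 and 70). By the size of its rise, miR-222-3p was number 7 of 379 arms that averaged 10 CPM or more in both comparisons, which share their CP libraries. The difference was of like size in each set, at 2.86 (replicate 1) and 3.14 (replicate 2) for VZ against CP and at 2.79 and 2.83 for OSVZ against CP. In bulk pieces of tissue, more cells that hold a microRNA and more of it per cell cannot be told apart.

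miR-221-3p was the more abundant of the pair in every library. It stood at 35422 and 9349 CPM in VZ_17 (replicates 1 and 2) and at 14719 and 23493 CPM in VZ_18. The OSVZ libraries held 34249 and 12510 CPM (OSVZ_17int), 25688 and 17999 CPM (OSVZ_17ext) and 22274 and 15486 CPM (OSVZ_18). CP libraries held 17425 and 7620 CPM in area 17 and 7381 and 6596 CPM in area 18. One CP library, CP_17 replicate 1, thus lay within the range of both germinal zones. Its TMM factor was 0.606. VZ_17 replicate 1 and OSVZ_17int replicate 1, which held the highest CPM, had factors of 0.740 and 0.567, and VZ_18 replicate 1 had 1.32. The part of the scaling in these levels was not tested. As a plain share of the library, CP (0.563% to 1.06%) did not overlap with the germinal zones. Those 2 zones overlapped with each other, at 1.36% to 3.15% in VZ and 1.76% to 2.43% in OSVZ. CP_17 replicate 1 was the highest CP library by this measure too.

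**Figure D1:**
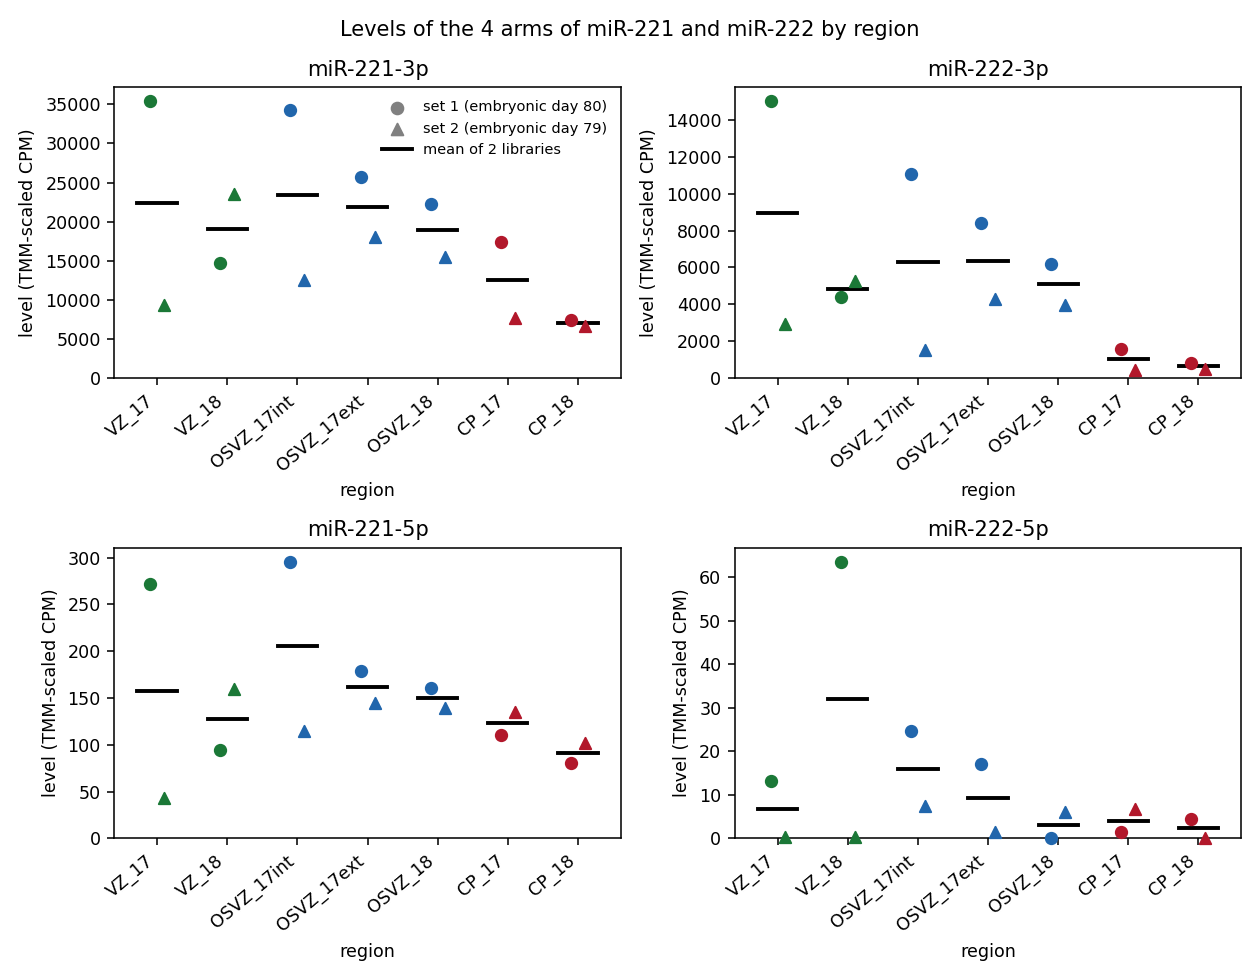
TMM-scaled CPM (vertical axes, linear) of the 4 arms in the 7 regions (horizontal axes), with 1 point per library (circles, set 1 at embryonic day 80; triangles, set 2 at embryonic day 79) and a bar at the mean of both. All 4 CP libraries of miR-222-3p lie at or below 1582 CPM, while miR-221-3p reaches 17425 CPM in CP_17 replicate 1.

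The differences of miR-221-3p from CP were about 2-fold and near the threshold of the test. OSVZ exceeded CP by 1.13 ± 0.35 on the log2 scale (2.19-fold, edgeR adjusted p = 0.0445), a call that was lost without the block (adjusted p = 0.196) and, on the same arms, without any 1 of 9 single libraries (each of the CP, OSVZ_17ext and OSVZ_18 libraries and OSVZ_17int replicate 1, with adjusted p from 0.068 to 0.301). VZ exceeded CP by a like amount, 1.16 ± 0.37 (2.23-fold), and missed the threshold by little (edgeR adjusted p = 0.0503). That difference did pass with DESeq2 (1.42, adjusted p = 0.0128), with DESeq2 size factors (1.42, adjusted p = 0.013), with library totals (1.54, adjusted p = 0.000652), and without VZ_18 replicate 1 (1.68, adjusted p = 0.000966), VZ_17 replicate 2 (1.57, adjusted p = 0.000576) or OSVZ_17int replicate 2 (1.28, adjusted p = 0.0317). It was as low as 0.64 without VZ_18 replicate 2 (adjusted p = 0.275) and 0.69 without VZ_17 replicate 1 (adjusted p = 0.31). The value within replicate 1 was 1.01 and within replicate 2 was 1.06 for VZ against CP, and 1.18 and 1.10 for OSVZ against CP.

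The proportion of the 2 loaded arms was then compared between zones. Counted in the same library, where scaling cancels, miR-222-3p amounted to 42.5 and 31.1 counts per 100 counts of miR-221-3p in VZ_17 (replicates 1 and 2) and 29.8 and 22.4 in VZ_18. In OSVZ it was 32.3 and 12.0 (OSVZ_17int), 32.8 and 23.8 (OSVZ_17ext) and 27.8 and 25.7 (OSVZ_18). In CP it was 9.08 and 5.37 in area 17 and 10.7 and 7.34 in area 18. All 10 germinal zone libraries lay above all 4 CP libraries, although OSVZ_17int replicate 2, at 12.0, was close to the highest CP library. The unequal capture of different small RNAs by ligation can shift such a ratio in all libraries alike, so the ratio can be set side by side between zones but does not give the true proportion of the molecules.

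On the log2 scale the ratio was -1.71 ± 0.38 in VZ (SD, n = 4), -2.03 ± 0.54 in OSVZ (n = 6) and -3.67 ± 0.43 in CP (n = 4). The difference between VZ and CP was 1.96 (exact two-sided permutation test, p = 0.0286, the smallest that 4 against 4 libraries can give). That between OSVZ and CP was 1.64 (exact permutation p = 0.00952, again the smallest possible). Adjusted over the 9 exact permutation tests made on ratios and shares, both had p = 0.0857 and did not pass. OSVZ and VZ differed by -0.33 (exact permutation p = 0.343, adjusted p = 0.453). The ratio was higher in replicate 1 than in replicate 2 in 7 of 7 regions, and the difference between zones had the same direction in both sets, at 1.85 and 2.07 for VZ against CP and 1.65 and 1.63 for OSVZ against CP.

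**Figure D2:**
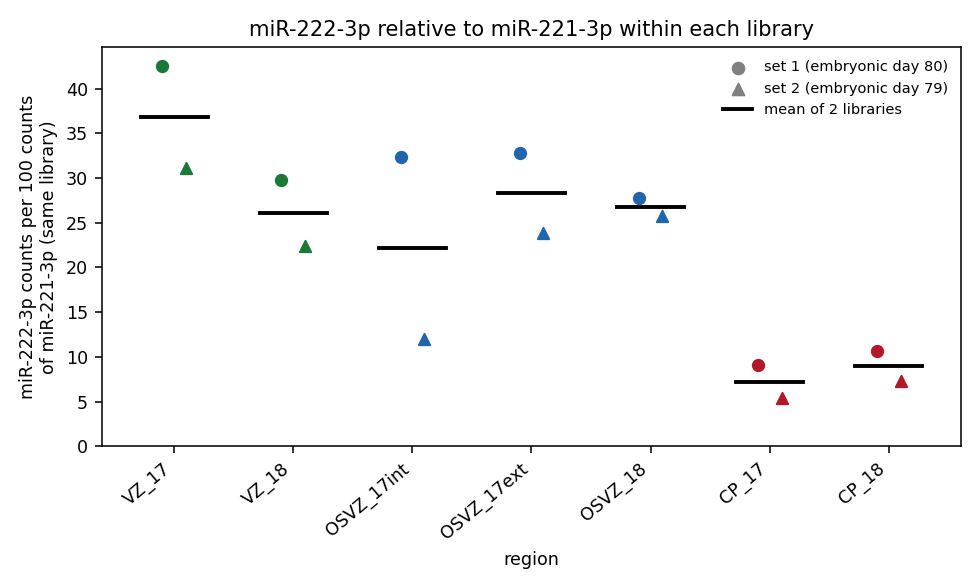
Counts of miR-222-3p per 100 counts of miR-221-3p of the same library (vertical axis, linear) by region (horizontal axis), with 1 point per library (circles, set 1; triangles, set 2) and a bar at the mean of both. CP libraries sit between 5.37 and 10.7, germinal zone libraries between 12.0 and 42.5, and the circle is above the triangle in each region.

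Ordered by mean level, miR-222-3p ran from VZ_17 (8979 CPM) through OSVZ_17ext (6350 CPM), OSVZ_17int (6280 CPM), OSVZ_18 (5083 CPM) and VZ_18 (4828 CPM) down to CP_17 (996 CPM) and CP_18 (636 CPM). Neighbours in that order overlapped between libraries except at a single step, from VZ_18 to CP_17. miR-221-3p ran from OSVZ_17int (23380 CPM) through VZ_17 (22386 CPM), OSVZ_17ext (21843 CPM), VZ_18 (19106 CPM) and OSVZ_18 (18880 CPM) to CP_17 (12522 CPM) and CP_18 (6989 CPM). Here the single step without overlap was that from CP_17 to CP_18.

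Between the germinal zones, and between sublayers and areas, no arm of the pair was called. Against VZ, OSVZ stood at -0.02 ± 0.34 for miR-221-3p (95% interval -0.72 to 0.68) and at -0.26 ± 0.37 for miR-222-3p (-1.02 to 0.49). Inner and outer OSVZ of area 17 differed by -0.01 ± 0.52 for miR-221-3p (-1.07 to 1.04) and by -0.37 ± 0.58 for miR-222-3p (-1.54 to 0.80). For miR-222-3p that value joined opposite signs in the sets, 0.39 in replicate 1 and -1.52 in replicate 2. In each of these 3 comparisons 0 of 4 member arms passed with edgeR or with DESeq2, and 0 had an unadjusted p under 0.05 by either tool. The share of all arms that edgeR called was 0.0878% for OSVZ against VZ, 0% for inner against outer OSVZ and 0.0878% for area 17 against area 18. Of all 1139 arms, 113, 48 and 103 had an unadjusted edgeR p under 0.05 in these comparisons, in that order. DESeq2 called 27, 2 and 18.

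Area 17 stood above area 18 by 0.28 ± 0.30 for miR-221-3p (95% interval -0.32 to 0.88) and by 0.26 ± 0.33 for miR-222-3p (-0.40 to 0.93), neither of which passed. The direction again differed between sets, at 0.97 and -0.39 for miR-221-3p and 1.14 and -0.58 for miR-222-3p. The difference between VZ and CP was compared between the areas in the same fit and differed by -0.79 ± 0.74 for miR-221-3p (edgeR adjusted p = 0.95) and by -0.04 ± 0.80 for miR-222-3p (adjusted p = 1).

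**Figure D3:**
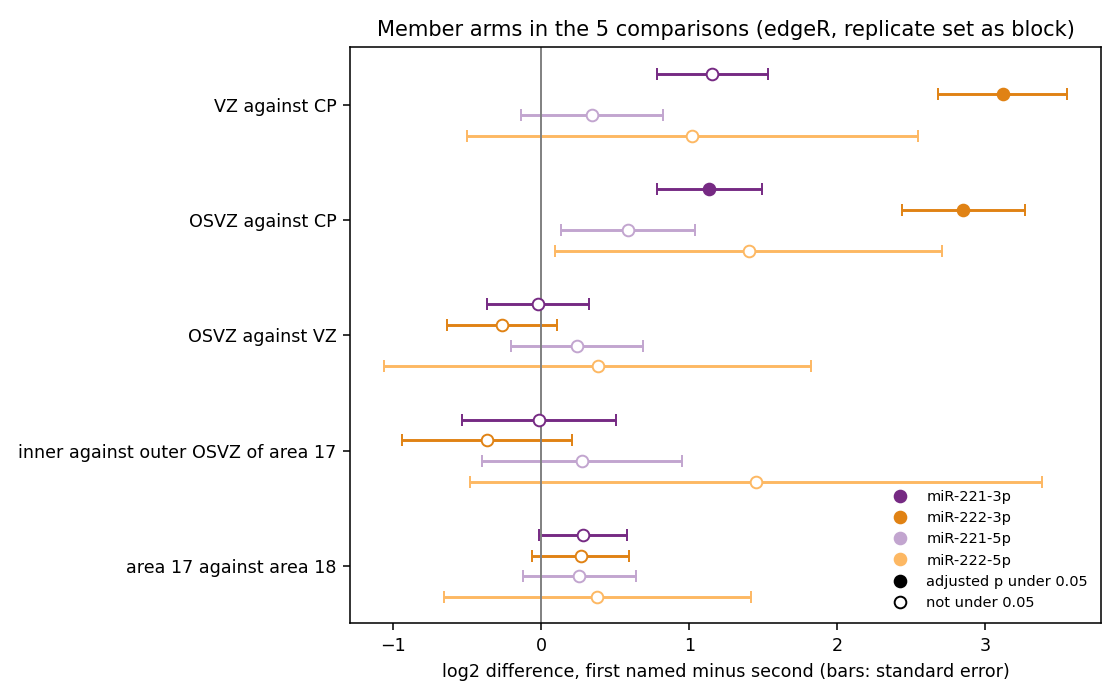
Log2 differences of the 4 arms (horizontal axis, bars are 1 standard error) in the 5 comparisons (vertical axis), from 1 edgeR fit over 14 libraries. Filled points have an adjusted p under 0.05, and they are miR-222-3p in both comparisons with CP (3.12 and 2.85) and miR-221-3p in OSVZ against CP (1.13).

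The 5p arms, the strands that are mostly degraded, were rare. miR-221-5p stood at 43.6 to 271 CPM in VZ, 115 to 296 CPM in OSVZ and 80.6 to 135 CPM in CP, so that the zones overlapped. It differed by 0.34 ± 0.48 between VZ and CP (edgeR adjusted p = 0.712) and by 0.58 ± 0.45 between OSVZ and CP (adjusted p = 0.651), neither of which passed. The sets disagreed on VZ against CP, at 0.76 and -0.49.

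miR-222-5p was the rarest of the 4 arms, with under 10 counts in 6 of 14 libraries. It had 61 and 3 counts in VZ_17 (replicates 1 and 2) and 683 and 2 counts in VZ_18. OSVZ libraries had 122 and 50 counts (OSVZ_17int), 111 and 9 counts (OSVZ_17ext) and 0 and 33 counts (OSVZ_18), where the 0 allows up to 3 counts, or 0.397 CPM. CP libraries had 6 and 56 counts in area 17 and 20 and 1 in area 18. The count of VZ_18 replicate 1 thus stood far above the next highest, 122. Its TMM factor, 1.32, was the highest of replicate 1. Its erythroid markers were also the highest of all, at a sum of 334 CPM. VZ libraries ran from 55.9 CPM with a median of 93.9 CPM, and OSVZ and CP libraries from 18.9 to 126 CPM. A rare arm of another list, miR-34a-3p, also varied widely between VZ libraries (44.3 ± 81.7 CPM, SD, n = 4). The part of red cells in the count of miR-222-5p was not tested. No difference of miR-222-5p passed (1.02 ± 1.52 for VZ against CP, edgeR adjusted p = 0.738).

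The 3p arm made up 98.3% to 99.5% of the counts of miR-221 in every library, and 98.4% to 100% of those of miR-222. For miR-221 the lowest share was 98.25% (95% exact binomial interval 98.15% to 98.35%, for counting error only) in CP_17 replicate 2 and the highest 99.54% (99.48% to 99.59%) in VZ_17 replicate 2. In units that show the small differences better, CP libraries of replicate 2 had 17.8 and 15.5 counts of miR-221-5p per 1000 counts of miR-221-3p (areas 17 and 18). VZ libraries had 4.66 to 7.66, OSVZ libraries 6.95 to 9.19, and CP libraries of replicate 1 had 6.37 and 10.9. The 3p share of miR-221 differed by 0.61 percentage points between VZ and CP (exact permutation p = 0.114, adjusted p = 0.206), by 0.43 points between OSVZ and CP (p = 0.0952, adjusted p = 0.206) and by -0.18 points between OSVZ and VZ (p = 0.0286, adjusted p = 0.0857). None passed, and the 3p share of miR-222 gave adjusted p between 0.453 and 0.743 in the same exact permutation tests.

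Over the 14 libraries and among the 379 arms of 10 CPM or more, the arm most like miR-221-3p by Pearson's r of log2 CPM was its partner miR-222-3p (r = 0.92). It was followed by miR-30a-3p (0.913), the hypoxia-induced miR-210-3p (0.909), miR-30a-5p (0.876) and miR-25-3p (0.873). The arm most like miR-222-3p was miR-152-3p (0.94), followed by miR-221-3p (0.92), miR-423-5p (0.887), miR-125b-3p (0.872) and miR-210-3p (0.867). These values are descriptions only, since the libraries share zones, sets and scaling factors, each of which moves many arms at once. miR-152-3p went from 351 CPM in VZ through 265 CPM in OSVZ to 81.0 CPM in CP, and miR-423-5p from 723 through 720 to 145 CPM. The own 5p arms of the pair ranked lower, with miR-221-5p at number 12 for miR-221-3p (r = 0.776) and miR-222-5p at number 113 for miR-222-3p (r = 0.277).

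**Figure D4:**
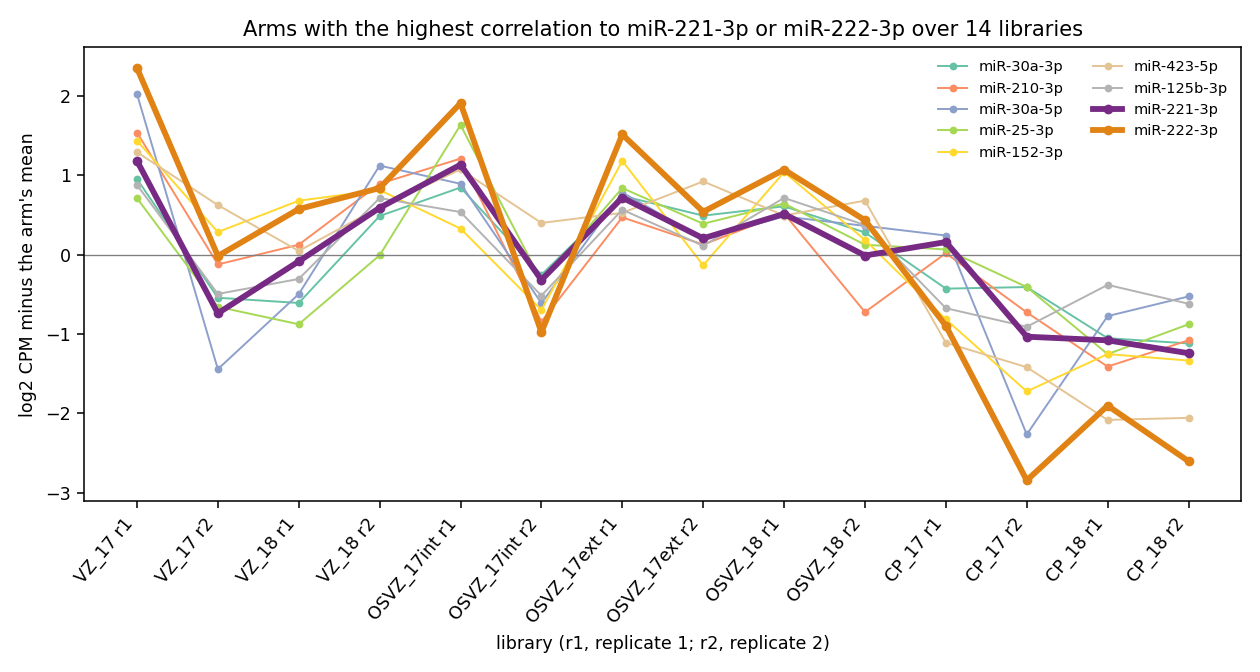
Log2 CPM of each arm minus its mean (vertical axis) in the 14 libraries (horizontal axis), for miR-221-3p and miR-222-3p (thick lines) and the arms with the highest r to either (thin lines). Most lines dip at VZ_17 replicate 2 and OSVZ_17int replicate 2, and in the 4 CP libraries the line of miR-222-3p runs below that of miR-221-3p, which in CP_17 replicate 1 is slightly above its mean.

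Other microRNAs that repress inhibitors of the cell cycle were read beside the pair. The Cip/Kip family of inhibitors comprises p21, p27 and p57, and 16 arms of 8 microRNAs known to repress one of them were tested, with mir-20a not analysed here. In VZ against CP 2 of these were higher, 1 was lower and 13 did not pass with edgeR, with a list median of 0.54 where that of all arms was -0.22. Of all tested arms edgeR called 2.63% as higher and 4.74% as lower in VZ. The higher arms were miR-92b-3p (5.64 ± 0.41) and miR-92b-5p (5.58 ± 0.49), from a microRNA known to repress p57, and the lower arm was miR-17-3p (-1.46 ± 0.42), the minor arm of a microRNA that represses p21. miR-20b-5p, also a p21 repressor, did not pass there (0.93 ± 0.41). In OSVZ against CP 3 were higher, both miR-92b arms and miR-20b-5p (1.26 ± 0.39), and 13 did not pass, with a median of 0.73 against -0.20. Of all tested arms 2.37% were higher and 4.21% lower in OSVZ. DESeq2 called 6 of the 16 in VZ (5 higher) and 5 in OSVZ (5 higher). Of all 1139 arms it called 172 in VZ (96 higher) and 129 in OSVZ (59 higher). The other p27 repressor of the list, miR-24-3p, averaged 4378 CPM in VZ, 4550 CPM in OSVZ and 6226 CPM in CP, and its differences from CP (-0.51 ± 0.35 and -0.54 ± 0.33) did not pass.

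Of 18 tested arms of microRNAs that repress cyclins or their kinases, 0 were higher, 1 was lower and 17 did not pass in both comparisons with CP, with 5 (VZ) and 6 (OSVZ) at an unadjusted p under 0.05. Of all 1139 arms edgeR called 7.37% (VZ) and 6.58% (OSVZ), and 247 and 184 had an unadjusted p under 0.05. The lower one was miR-137-3p, which represses CDK6 and drives neuronal maturation (-5.05 ± 0.67 in VZ, -4.27 ± 0.60 in OSVZ). miR-15a-3p (2.30 ± 1.02), miR-195-3p (1.36 ± 0.63) and miR-137-5p (-3.09 ± 1.11) did not pass in VZ against CP. DESeq2 called 5 of the 18 in each comparison, 3 of them higher in VZ and 4 in OSVZ, where it called 172 (VZ) and 129 (OSVZ) of all 1139 arms. The list medians were 0.03 and 0.40. Some of the arms that did not pass were rare, with means over all libraries of 0.818 CPM (miR-124-3p), 4.40 CPM (miR-449a-5p) and 32.2 CPM (let-7a-5p). As the handling of reads that match several loci is not given, these values do not show their levels in the tissue.

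Among 13 tested arms of other microRNAs on the short arm of the human X chromosome (miR-98, and miR-188, miR-362, miR-500, miR-501, miR-532 and miR-660 of a cluster in the CLCN5 gene, with mir-502 not analysed here), edgeR called 0 in both comparisons with CP, with 3 (VZ) and 1 (OSVZ) at an unadjusted p under 0.05. Over all 1139 arms edgeR called 7.37% (VZ) and 6.58% (OSVZ), and 247 and 184 had an unadjusted p under 0.05. DESeq2 called 4 of the 13 as higher in VZ and 0 in OSVZ, where it called 96 and 59 of all arms as higher. The list medians were 0.69 and 0.42. Among arms of 10 CPM or more, those with the smallest p in VZ against CP were miR-98-5p, a let-7 relative (-1.54 ± 0.52), miR-188-5p (2.54 ± 1.05), miR-532-3p (1.30 ± 0.65) and miR-532-5p (0.69 ± 0.45), which did not pass. The third arm under an unadjusted p of 0.05, miR-501-3p, averaged 2.22 CPM (3.53 ± 1.64).

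Cells of other kinds that hold miR-221 and miR-222 were followed by their own markers. The endothelial miR-126 (2 arms) summed to 980 to 2795 CPM in VZ, 1434 to 5289 CPM in OSVZ and 1547 to 4505 CPM in CP, with neither arm at 0 in any zone. Its 2 arms had a median difference of -0.65 in VZ and 0.00 in OSVZ against CP, with 0 called by edgeR or DESeq2 and 0 at an unadjusted p under 0.05. Of all 1139 arms edgeR called 7.37% (VZ) and 6.58% (OSVZ), and 247 and 184 had an unadjusted p under 0.05. DESeq2 called 172 (VZ) and 129 (OSVZ) of the 1139 arms. The level of the endothelial marker thus overlapped between all 3 zones. The part of endothelial cells in the levels of the pair was not tested.

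Myeloid and lymphoid arms (8 tested, of miR-223, miR-142, miR-155 and miR-150) had sums of 740 to 996 CPM in VZ, 587 to 1189 CPM in OSVZ and 441 to 493 CPM in CP, where the range lay below those of both germinal zones. In VZ 2 were higher (miR-155-5p, 2.92 ± 0.52, and miR-223-3p, 2.29 ± 0.51) and 6 did not pass, and in OSVZ 1 was higher (miR-155-5p, 2.41 ± 0.49) and 7 did not pass. Of all tested arms edgeR called 2.63% as higher in VZ and 2.37% as higher in OSVZ. The most abundant of them, miR-150-5p, stood at 0.09 ± 0.38 in VZ and 0.63 ± 0.36 in OSVZ. miR-142-3p, a defining blood cell microRNA, was at 0 in all CP libraries and at means of 2.71 CPM in VZ and 1.44 CPM in OSVZ, and did not pass (edgeR adjusted p = 0.133 and 0.228). Its partner arm miR-142-5p averaged 4.73 CPM in VZ, 0.90 CPM in OSVZ and 1.41 CPM in CP, and did not pass either (1.60 ± 1.39 and -1.48 ± 1.34). The part of these cells in the levels of the pair was not tested.

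Mural arms (4, of miR-143 and miR-145) summed to 689 to 1705 CPM in VZ, 1194 to 4684 CPM in OSVZ and 549 to 1002 CPM in CP, with miR-145-5p higher in OSVZ (1.44 ± 0.37) and 0 of 4 called in VZ by edgeR or DESeq2, where 1 had an unadjusted p under 0.05. Erythroid arms (4 tested of 6) summed to 55.9 to 334 CPM in VZ, 18.9 to 103 CPM in OSVZ and 27.5 to 126 CPM in CP. With edgeR 0 of these passed in either comparison, with 2 (VZ) and 0 (OSVZ) at an unadjusted p under 0.05, and DESeq2 called 1 and 0. Of all 1139 arms edgeR called 7.37% (VZ) and 6.58% (OSVZ), and DESeq2 called 172 and 129. By edgeR 247 (VZ) and 184 (OSVZ) of all arms had an unadjusted p under 0.05. No mural or erythroid arm was at 0 in all libraries of a zone, and the part of these cells was not tested either.

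**Figure D5:**
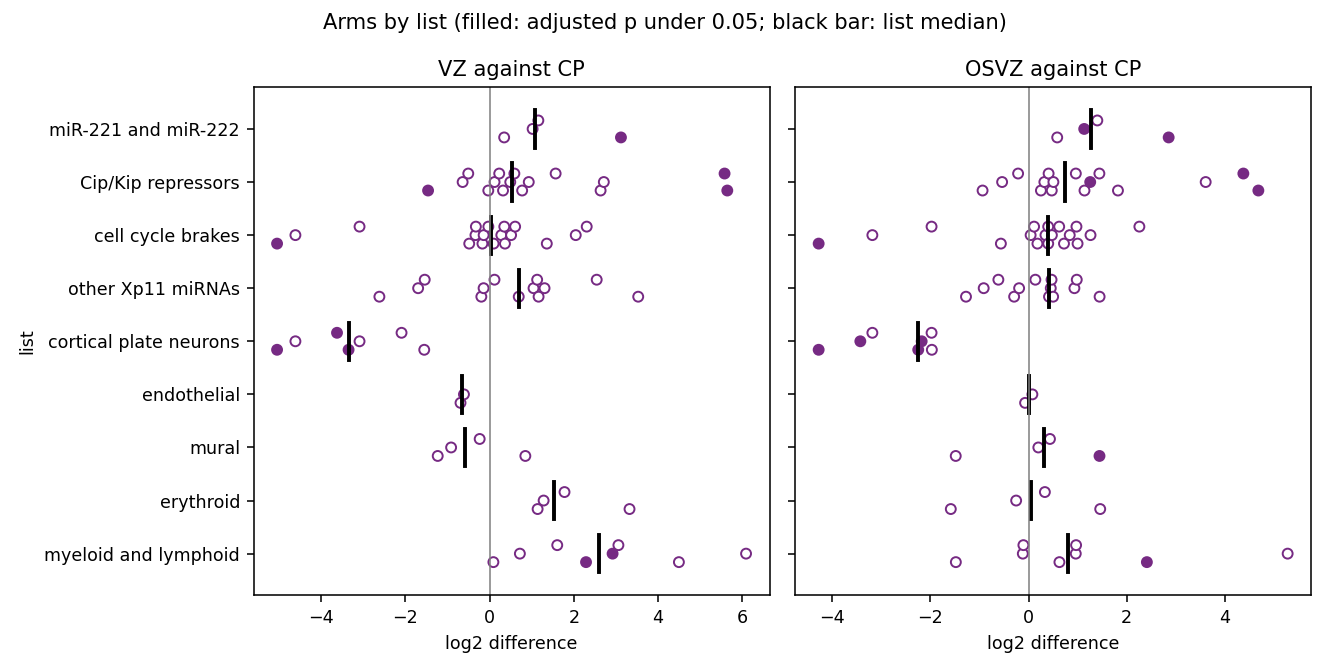
Log2 differences of single arms (horizontal axis) in VZ against CP (left) and OSVZ against CP (right) for the pair and 8 lists (vertical axis), with filled points at an adjusted p under 0.05 and a black bar at each median. The neuronal arms lie to the left, the endothelial arms have medians of -0.65 and 0.00, and miR-222-3p stands at 3.12 and 2.85. The part of any cell type in the levels of the pair was not tested.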

How the data were processed

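The tables deposited by the authors hold raw read counts for each arm of each miRNA, per the file headers, from size-selected small RNA libraries for the SOLiD platform, per the labels' protocols. The aligner, build, annotation and the handling of reads that match several loci are not given in the sources used here. Columns were given to a sample by the spelling of the region and the regions a table holds; 12 value columns, of 6 libraries, match no label and were not used. The design was written for 20 labelled samples and fitted to 14.

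The 828 shared names (of 861 and 868) were filtered with filterByExpr by region (1139 arms kept), scaled by TMM and tested in edgeR 4.0.16 (R 4.3.3) with robust quasi-likelihood F tests on region means, blocked on the set (6 residual degrees of freedom), and Benjamini-Hochberg adjustment over 1139 arms. In OSVZ both areas had equal weight, with the area 17 sublayers averaged first. Each set has its own embryonic day per the labels, and departures from region means went together within a set, with r from 0.228 to 0.723 in 21 of 21 pairs of regions over 379 arms. Ratios and shares (0.5 added to counts for log2 ratios) were tested by exact permutation in SciPy 1.17.1. Scripts were tested on simulated data. DESeq2 1.42.0 was an alternative.

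The pair, the lists and the rule for named arms (the members, up to 4 arms a list by p in VZ against CP at 10 CPM or more, and the 5 arms most like each 3p arm) were chosen with earlier results of these data known. Arms named in addition, chosen after their values were seen, are miR-124-3p, miR-24-3p, miR-142-3p, miR-142-5p, miR-501-3p, miR-34a-3p, miR-449a-5p and let-7a-5p. Mature sequences, and arms found by a shared seed, were not analysed here.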

Additional observations from a re-analysis of the deposited data

Results flagged for a closer look

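Of 21 groups of values examined (the 4 arms, the pair ratio and the 2 arm shares, each in 3 zones), 4 held a library far from the others, where chance alone gives about 1 in 20 of independent groups. These groups are not independent, since the ratio and the shares are built from the same arms and the libraries of a set go together. miR-221-5p in OSVZ was highest in OSVZ_17int replicate 1, at 296 CPM with the next library at 179 CPM. miR-221-3p in CP was highest in CP_17 replicate 1, at 17425 CPM with the next at 7620 CPM. The log2 ratio of miR-222-3p to miR-221-3p in OSVZ was lowest in OSVZ_17int replicate 2, at -3.06 with the next at -2.07. The 3p share of miR-222 in VZ was lowest in VZ_18 replicate 1, at 98.6% with the next at 99.9%. None of the 8 tests of a difference between areas 17 and 18 in the difference from CP passed for these arms.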

How the results depend on the processing

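The rise of miR-222-3p over CP kept its direction and its call in every setting and with every single library left out, at 2.53 to 3.87 for VZ (adjusted p up to 0.0121) and 2.67 to 3.15 for OSVZ (adjusted p up to 0.0173); the replicate block changed neither call. The differences of miR-221-3p from CP kept their direction too, but not the outcome of the test. For VZ against CP it passed with DESeq2 (1.42), DESeq2 size factors (1.42), library totals (1.54), no filter on low counts (1.38), arms of at least 10 CPM (1.33) and, chosen after seeing the data, VZ_18 replicate 1 and VZ_17 replicate 2 left out together (1.91), and for OSVZ against CP it was lost with no replicate block (1.14). The cause was not tested. The median of all arms moved with the scaling (TMM, DESeq2 size factors, library totals). It was -0.22, 0.02 and 0.21 in VZ against CP, and -0.20, -0.05 and 0.04 for OSVZ. Between OSVZ and VZ it was 0.12, 0.02 and -0.12, between the sublayers 0.17, 0.07 and 0.13, and between the areas -0.23, -0.19 and -0.46.

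Uncalled differences changed sign in places. miR-222-5p turned to -1.26 with no replicate block and -0.023 with library totals (OSVZ against VZ), to -0.016 with library totals (areas) and to -0.34 with the 2 VZ libraries left out (VZ against CP). miR-221-3p turned to 0.10 with no replicate block and 0.11 with arms of at least 10 CPM (inner against outer OSVZ), and miR-221-5p to -0.44 with the 2 VZ libraries left out (OSVZ against VZ). Single libraries left out gave, for VZ against CP, -0.52 to 0.95 (miR-221-5p), 0.64 to 1.68 (miR-221-3p) and -0.78 to 3.06 (miR-222-5p). For OSVZ against CP they gave 0.98 to 1.39 (miR-221-3p) and -3.86 to 3.97 (miR-222-5p). For OSVZ against VZ they gave -0.26 to 1.24 (miR-221-5p), -0.40 to 0.53 (miR-221-3p), -4.49 to 2.13 (miR-222-5p) and -0.67 to 0.33 (miR-222-3p). For inner against outer OSVZ they gave -0.40 to 0.53 (miR-221-5p), -0.50 to 0.13 (miR-221-3p) and -1.50 to 0.11 (miR-222-3p), and for the areas -0.30 to 0.64 (miR-221-5p) and -1.11 to 4.28 (miR-222-5p). Where an arm of a comparison is left with 1 library, that library is assumed to vary like the rest. The 3p share of miR-222 ran from -0.16 to 0.53 points (VZ against CP) and from -0.15 to 0.33 points (OSVZ against VZ).

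The number of arms called by edgeR was 84 in VZ against CP (172 with DESeq2), 75 in OSVZ against CP (129 with DESeq2, 123 with the 2 VZ libraries left out, 41 to 105 with single libraries left out), 1 for OSVZ against VZ (27 with DESeq2, 0 with no replicate block, library totals, arms of at least 10 CPM or the 2 VZ libraries left out, 0 to 22 with single libraries left out), 0 for inner against outer OSVZ (2 with DESeq2, 5 with the 2 VZ libraries left out, 0 to 1 with single libraries left out) and 1 for the areas (18 with DESeq2, 5 with no filter, 0 with arms of at least 10 CPM, 3 with the 2 VZ libraries left out, 0 to 25 with single libraries left out). With labels permuted within each set as a replicate block, the ratio of miR-222-3p to miR-221-3p gave an exact p of 0.0556 (VZ against CP) and 0.02 (OSVZ against CP), each the smallest that design allows, both 0.18 when adjusted over the 9 tests. miR-222-5p had 0 to 683 counts, with 683 and 2 in the libraries of VZ_18, a spread beyond counting error, and the part of depth in its standard errors was not tested.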
